A study of Mus musculus with 8 samples.

Results

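The miRNAs described here are both arms of miR-378a (miR-378a-3p and miR-378a-5p) and miR-486-5p, miRNAs tied to the metabolism and the mass of skeletal muscle. They were found by their mature name in the deposited assay table, once the species prefix was removed. Each name had 1 assay, so they are 3 of the 688 miRNAs on the panel and 3 of its 752 miRNA assays. miR-378a-3p was read with the mouse-named assay, numbered to plate 1 in the row keys, miR-378a-5p with the human-named assay of plate 2, and miR-486-5p with the human-named assay of plate 1.

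The study profiled miRNAs in the gastrocnemius in a mouse model of neurogenic heterotopic ossifications (NHOs), bone that forms in muscle after a lesion of the central nervous system, and in this model only muscle with both lesions (CDTX + SCI) develops them. Female C57Bl/6 mice, 6 to 8 weeks old, underwent thoracic spinal cord transection (SCI) or SHAM surgery, and received cardiotoxin (CDTX), a snake venom toxin that destroys myofibers, in the left gastrocnemius and PBS in the right. RNA of 3 muscles was pooled for each of the 8 conditions (PBS + SHAM, CDTX + SHAM, PBS + SCI, CDTX + SCI, each at day 2, D2, and day 4, D4), with 1 pool each. All mice were therefore operated on and injected, and since the animals behind a pool are not labelled, PBS and CDTX pools of equal surgery and day may share mice.

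miR-378a is processed from an intron of Ppargc1b, which encodes PGC-1β, a coactivator of mitochondrial and oxidative genes, and both of its arms are known to act on lipid and energy metabolism. Known targets of miR-378a-3p include carnitine acetyltransferase (Crat) and MyoR, a repressor of myogenic differentiation. miR-486 lies in Ank1, whose muscle promoter yields the small ankyrin of the sarcoplasmic reticulum, and miR-486-5p represses Foxo1 and Pax7, thereby favouring differentiation. In RefSeq's genes of mouse GRCm38.p6, used for names and neighbours only, Mir378a lay within Ppargc1b and Mir486 within Ank1. miR-486-5p is also abundant in red blood cells.

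Every level below is set against reference miRNAs, and every profile against other miRNAs of the panel. Mature sequences of 5 of these were found in the RefSeq table of GRCm38.p6, out of 16 miRNAs looked up. They are shown 5′ to 3′ with the seed, bases 2 to 8, in capitals, to let the references and the miRNAs with profiles most like miR-378a be told apart by their target-pairing letters. The pair of references is followed by miR-100-5p, whose profile was among those most like miR-378a-3p, and by miR-193b-3p and miR-136-3p, which stood close to miR-378a-5p.
miR-24-3p: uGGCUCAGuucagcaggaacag
miR-125b-5p: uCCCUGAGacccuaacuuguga
miR-100-5p: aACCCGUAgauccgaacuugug
miR-193b-3p: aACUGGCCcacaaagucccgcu
miR-136-3p: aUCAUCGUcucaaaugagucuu
The 5 seeds all differ. The looked-up miRNAs without an entry are named only, miR-378a-3p, miR-378a-5p and miR-486-5p among them.

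Each assay gave 1 quantification cycle (Cp) per pool, where 1 cycle fewer means about 2-fold more miRNA and 36 is the end of the recorded range. Between 152 and 178 of the 752 assays per pool had a Cp of at most 32, the study's threshold, and 123 assays of 117 miRNAs met it in all 8 pools and were tested. All 3 miRNAs met it. The relative level used below is the target's Cp subtracted from the mean of 3 reference Cp values (miR-23b-3p, miR-24-3p, miR-125b-5p), a log2 scale on which higher means more. The mean Cp of these references lay between 24.68 and 25.61 and was 0.45 cycles later in the CDTX than in the PBS pools (0.14 for miR-24-3p, 0.71 for miR-23b-3p and 0.52 for miR-125b-5p), so part of the shift in raw Cp given for each miRNA is shared by the references.

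All 3 miRNAs were lower in CDTX than in PBS muscle. In the fit over the 8 pools their relative level in CDTX muscle was 31.8% of that in PBS muscle for miR-378a-3p, 33.5% for miR-378a-5p and 35.2% for miR-486-5p. The fall was seen with SHAM and with SCI, at D2 and at D4, and the CDTX and PBS pools did not overlap for any of the 3.

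miR-378a-3p was the earlier arm by signal. In the PBS pools its Cp was 22.84 in SHAM and 23.12 in SCI muscle at D2, and 23.55 in SHAM and 23.73 in SCI muscle at D4. In the CDTX pools the Cp was 25.42 in SHAM and 24.98 in SCI muscle at D2, and 25.86 in SHAM and 25.41 in SCI muscle at D4. Every CDTX pool thus gave its signal later than every PBS pool. The log2 relative levels were 1.84, 1.74, 1.80 and 1.44 in PBS + SHAM D2, PBS + SCI D2, PBS + SHAM D4 and PBS + SCI D4, and 0.12, 0.53, -0.25 and -0.19 in CDTX + SHAM D2, CDTX + SCI D2, CDTX + SHAM D4 and CDTX + SCI D4. Among CDTX pools the D2 pools stood above the D4 pools, and the highest of them, CDTX + SCI D2, lay 0.91 below the lowest PBS pool.

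miR-378a-5p, the other strand of the same precursor, was a later assay. Its Cp in the PBS pools was 26.72 in SHAM and 26.77 in SCI muscle at D2, and 26.81 in SHAM and 27.29 in SCI muscle at D4. In the CDTX pools it was 29.14 in SHAM and 28.81 in SCI muscle at D2, and 28.72 in SHAM and 29.04 in SCI muscle at D4. Again no CDTX pool reached the signal of a PBS pool. In the same order of pools as above, the log2 relative levels were -2.04, -1.91, -1.46 and -2.12 with PBS and -3.60, -3.30, -3.11 and -3.82 with CDTX. With either injection SHAM D4 was highest and SCI D4 lowest, and the gap between the lowest PBS and the highest CDTX pool was 0.99.

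miR-486-5p had a Cp in the PBS pools of 25.79 in SHAM and 26.21 in SCI muscle at D2, and of 26.39 in SHAM and 26.57 in SCI muscle at D4. In the CDTX pools the Cp was 28.27 in SHAM and 28.06 in SCI muscle at D2, and 28.46 in SHAM and 28.02 in SCI muscle at D4. The relative levels were the most even of the 3 within each injection, at -1.11, -1.35, -1.04 and -1.40 with PBS and -2.73, -2.55, -2.85 and -2.80 with CDTX on the log2 scale. They spanned 0.36 over the PBS pools and 0.30 over the CDTX pools, while the gap between the injections was 1.15. For all 3 miRNAs the step from the lowest PBS to the highest CDTX pool was larger than any step between neighbouring pools of the same injection, which reached 0.41 for miR-378a-3p, 0.45 for miR-378a-5p and 0.24 for miR-486-5p. With 1 pool per condition, no repeat shows whether such neighbours differ.

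**Figure D1:**
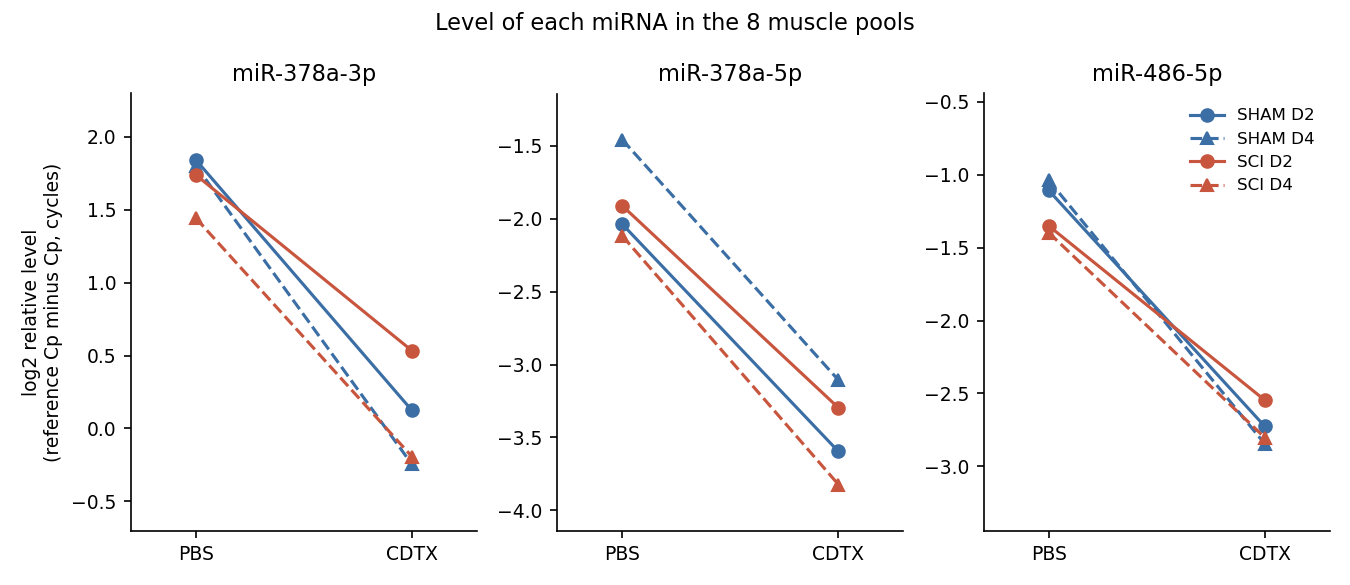
Log2 relative level (mean Cp of the 3 reference miRNAs minus Cp, in cycles) of miR-378a-3p, miR-378a-5p and miR-486-5p in PBS and CDTX muscle. Each point is 1 pool of 3 muscles and each line joins the PBS and CDTX pool of the same surgery (blue SHAM, red SCI) and day (circles D2, triangles D4). The panels share their span but not their range, and in each the 4 CDTX points lie below the 4 PBS points, by at least 0.91.

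The question whether CDTX injury changed these miRNAs beyond the spread between pools was tested with a limma fit of injection, surgery and day over the 8 pools. The CDTX minus PBS difference was -1.65 on the log2 scale for miR-378a-3p (SE 0.182, 95% interval -2.07 to -1.24, adjusted p = 0.000108), that is 3.15-fold lower. For miR-378a-5p it was -1.58 (SE 0.213, interval -2.06 to -1.09, limma adjusted p = 0.00028), 2.98-fold lower. For miR-486-5p it was -1.51 (SE 0.163, interval -1.88 to -1.14, limma adjusted p = 0.000108), 2.84-fold lower. All 3 passed an adjusted p under 0.05, and each was lower in 4 of 4 matched pairs of pools. Such calls were common in this comparison, since 47 of the 123 assays (38.2%) were called lower and 42 (34.1%) higher. The split between lower and higher depended on the reference, with 35 lower and 54 higher for miR-23b-3p alone, 56 and 30 for miR-24-3p alone and 52 and 32 for the deposited values. Likewise all 4 CDTX pools lay below all 4 PBS pools for 43 assays (35%). By size the 3 miRNAs stood near the low end of the panel, with the differences ranked 8, 9 and 10 from the lowest of 123 while the median over all assays was -0.01. The p-values measure the spread between pools over surgeries and days, not between mice.

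**Figure D2:**
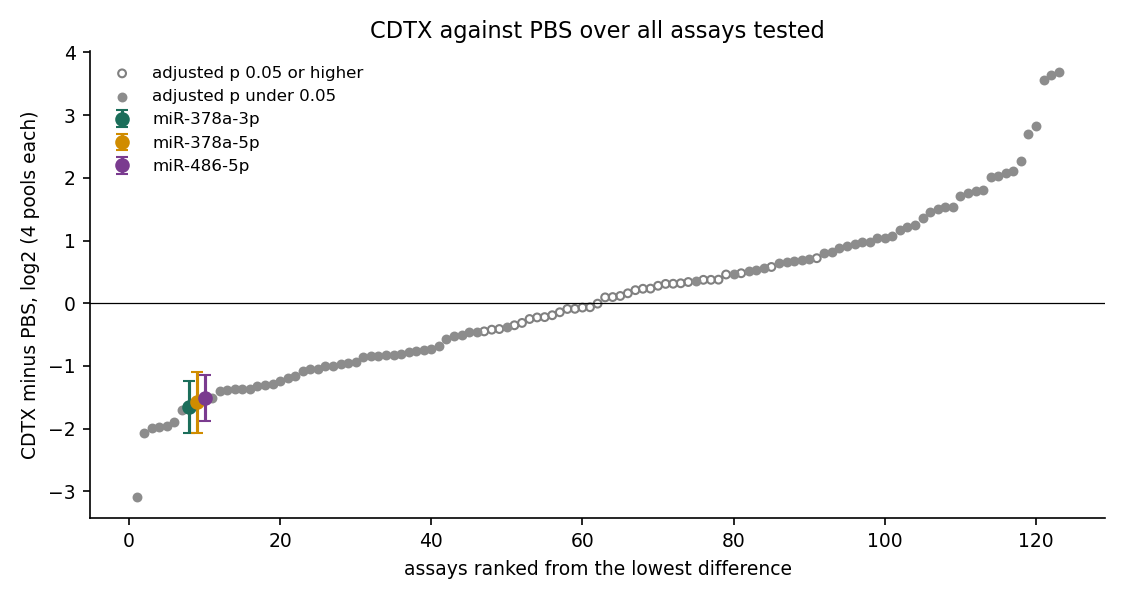
Fitted CDTX minus PBS difference in log2 relative level (4 pools each) for the 123 assays tested, ranked from the lowest. Filled grey points have a limma adjusted p under 0.05, open points do not, and the coloured points with 95% intervals are miR-378a-3p, miR-378a-5p and miR-486-5p, at ranks 8, 9 and 10 with differences of -1.65, -1.58 and -1.51.

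Pool against pool, the fall was smallest in SCI muscle at D2 for each of the 3. The CDTX + SHAM pool held 30.4% of the miR-378a-3p of the PBS + SHAM pool at D2 and 24.1% at D4, and the CDTX + SCI pool held 43.3% of that of PBS + SCI at D2 and 32.2% at D4. For miR-378a-5p the same shares were 33.9% and 31.9% in SHAM and 38.2% and 30.6% in SCI muscle. For miR-486-5p they were 32.5% and 28.5% in SHAM and 43.6% and 37.7% in SCI muscle. In log2 terms the ratios of CDTX over PBS ran from -2.05 to -1.21 for miR-378a-3p, from -1.71 to -1.39 for miR-378a-5p and from -1.81 to -1.20 for miR-486-5p. All 12 pool ratios were thus past 2-fold lower, a size that 17% of the assays that met the Cp threshold in both pools passed in SHAM muscle at D2, 24.3% in SHAM at D4, 18.9% in SCI at D2 and 22.5% in SCI at D4. miR-378a-3p ranked 5 from the lowest of 141 assays in SHAM muscle at D2 and 20 of 143 in SCI muscle at D2. At D4 it ranked 8 of 136 in SHAM and 12 of 142 in SCI muscle. For miR-378a-5p the ranks in SHAM and SCI muscle were 10 and 13 at D2 and, the other way, 18 and 8 at D4. For miR-486-5p they were 8 and 21 at D2 and 13 and 18 at D4. These ratios of 2 pools have no test. With miR-23b-3p alone as the reference, all 3 ratios in SCI muscle at D2 fell short of 2-fold, at -0.79, -0.97 and -0.78.

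Whether the fall depended on the spinal lesion or on the day was tested as a difference between responses. The CDTX response with SCI minus that with SHAM was 0.46 for miR-378a-3p (95% interval -0.42 to 1.35), 0.06 for miR-378a-5p (-1.03 to 1.15) and 0.41 for miR-486-5p (-0.41 to 1.23). None was called, each with a limma adjusted p of 0.975, and of all 123 assays 0 were called and 0 had an unadjusted p under 0.05. The intervals are wide enough to hold both an unchanged response and one lessened by over 1 on the log2 scale. The response at D4 minus that at D2 was -0.38 for miR-378a-3p (interval -1.10 to 0.34, limma adjusted p = 0.415), -0.21 for miR-378a-5p (-1.14 to 0.73, adjusted p = 0.74) and -0.20 for miR-486-5p (-0.86 to 0.46, adjusted p = 0.645). None of the 3 was called, while 5 of 123 assays (4.07%) were.

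No difference between SCI and SHAM muscle beyond the spread between pools was seen for the 3 miRNAs. The SCI minus SHAM difference was 0.00 for miR-378a-3p (95% interval -0.42 to 0.42, limma adjusted p = 1), -0.24 for miR-378a-5p (-0.72 to 0.25, adjusted p = 0.906) and -0.10 for miR-486-5p (-0.47 to 0.28, adjusted p = 0.981). Here 0 of 123 assays were called by limma, and 5 had an unadjusted p under 0.05. The fit average of 0.00 for miR-378a-3p joins opposite signs, since the SCI over SHAM log2 ratio was -0.10 at D2 and -0.36 at D4 in PBS muscle and 0.41 at D2 and 0.05 at D4 in CDTX muscle. miR-486-5p had the same signs, with -0.24 and -0.36 in PBS and 0.18 and 0.04 in CDTX muscle. miR-378a-5p went instead with the day, at 0.13 (PBS) and 0.30 (CDTX) at D2 and -0.66 (PBS) and -0.72 (CDTX) at D4. None of these 12 ratios reached 2-fold, a size passed in either direction by 1.82% of assays in PBS muscle at D2, 0.676% in PBS at D4, 1.37% in CDTX at D2 and 10.7% in CDTX at D4.

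Nor did D4 and D2 differ beyond that spread in the test. The D4 minus D2 difference was -0.36 for miR-378a-3p (95% interval -0.77 to 0.06, limma adjusted p = 0.354), 0.08 for miR-378a-5p (-0.40 to 0.57, adjusted p = 0.778) and -0.09 for miR-486-5p (-0.46 to 0.28, adjusted p = 0.711). None was called, and neither was any of the 123 assays, of which 17 had an unadjusted p under 0.05. For miR-378a-3p the log2 ratio of D4 over D2 was below 0 in all 4 pairs, at -0.04 (PBS) and -0.37 (CDTX) with SHAM and -0.30 (PBS) and -0.73 (CDTX) with SCI. For miR-486-5p it was 0.07, -0.12, -0.05 and -0.26 in the same order. For miR-378a-5p it was 0.58 and 0.49 in the PBS and CDTX pools with SHAM and -0.21 and -0.53 in those with SCI. None of these ratios reached 2-fold, which 2.61% of assays did in PBS and 23.4% in CDTX pools with SHAM, and 1.27% in PBS and 15.3% in CDTX pools with SCI.

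**Figure D3:**
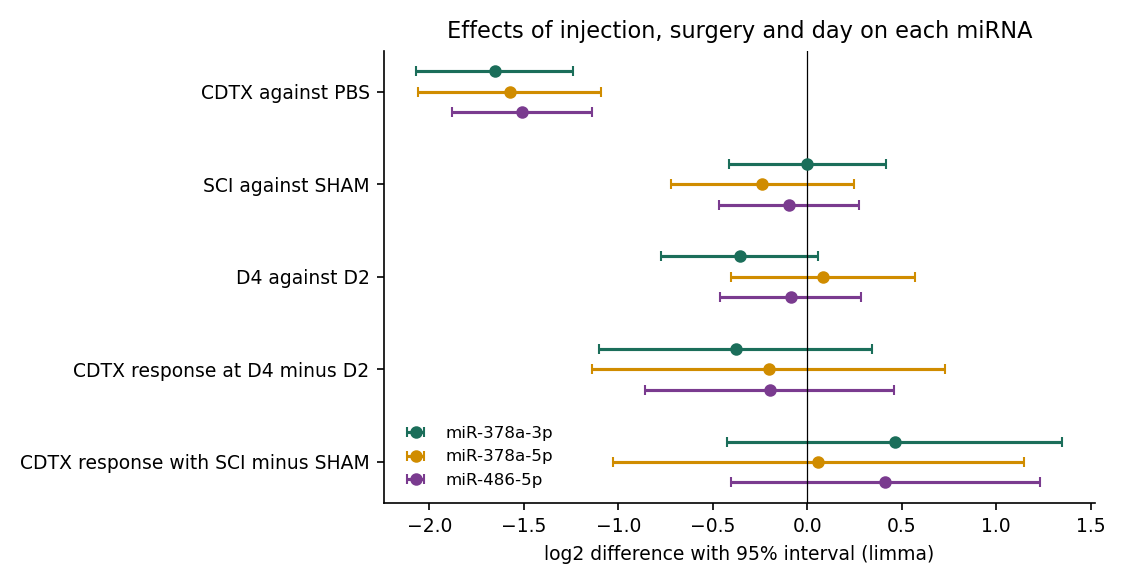
Fitted log2 differences with 95% intervals (limma, 8 pools) for the 3 miRNAs. The rows are the effects of injection, surgery and day and the differences of the CDTX response between days and between surgeries, and only the intervals of CDTX against PBS, with centres between -1.65 and -1.51, lie clear of 0.

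The arms of miR-378a were then set against each other within each pool, a comparison that needs no reference miRNA. The 5p arm gave its signal 3.88 and 3.65 cycles after the 3p arm in PBS + SHAM and PBS + SCI muscle at D2, and 3.26 and 3.56 cycles after it at D4. In CDTX + SHAM and CDTX + SCI muscle the delay was 3.72 and 3.83 cycles at D2 and 2.86 and 3.63 cycles at D4. The 3p arm was thus ahead in all 8 pools, by 3.55 cycles on average (SD 0.337, n = 8 pools), which would be 11.7-fold if both assays amplified and were primed equally well. The pools with the smallest delay were the SHAM pools of D4.

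The delay did not separate the injections. It was 3.51 ± 0.441 cycles with CDTX and 3.59 ± 0.257 with PBS (SD, n = 4 pools each), a difference of -0.08 cycles (exact permutation test, two-sided, p = 0.8, where the smallest p this design allows is 0.0286). True shifts between -1.02 and 0.57 cycles were not rejected by the same test on these pools (97.1% interval). Sign flips within the 4 matched pairs gave p = 0.75 (exact, smallest possible 0.125).

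Of the 11 miRNAs with both arms tested, miR-378a had the third lowest SD of the arm difference over pools and the second smallest shift with CDTX. The lower SDs were those of miR-30a (0.171) and miR-29a (0.257), and the highest was that of miR-434 (0.855), whose arm difference moved by -1.30 cycles with CDTX. The ranks are a description of these pools.

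The arms of miR-378a carry different plate numbers in the deposited row keys, read here as plates I and II of the panel, and whether these were run apart is not stated. The assays of these numbers shifted against each other. From D2 to D4 in PBS + SHAM muscle the median log2 ratio was 0.10 over the 105 tested assays of plate 1 and 0.53 over the 18 of plate 2, of which 17 were above 0. In CDTX + SHAM muscle the same medians were 0.18 and 0.71. For CDTX + SCI over CDTX + SHAM at D4 they were -0.17 and -0.77, with 1 of 18 assays of plate 2 above 0. miR-378a-5p moved the same way in each, at 0.58, 0.49 and -0.72. It went against plate 2 for CDTX over PBS, where the plate 2 medians in SHAM D2, SHAM D4, SCI D2 and SCI D4 were 0.28, 1.01, 0.25 and 0.30. Its own ratios there were -1.56, -1.65, -1.39 and -1.71. From D2 to D4 in PBS + SCI muscle the plate 2 median was 0.17 and miR-378a-5p was at -0.21. In the remaining pool comparisons the signs were the same. With each plate set to its own mean, the assay itself left out, the ratios of 0.58, 0.49 and -0.72 became 0.11, -0.27 and 0.05. On that scale the SD of the arm difference over the 8 pools was 0.213 rather than 0.337, the lowest of the 11 miRNAs, and the CDTX minus PBS difference was 0.21 cycles (exact permutation p = 0.2). The delay on that scale was longer with CDTX in 4 of 4 matched pairs, by 0.04 to 0.51 cycles (exact sign flips within pairs, p = 0.125, the smallest possible). The fall with CDTX was no smaller on that scale, between -2.29 and -1.67 for the 4 pool ratios of miR-378a-5p. The plate mean itself holds assays that changed with CDTX, and the part of the plate in the values of miR-378a-5p was not tested further.

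**Figure D4:**
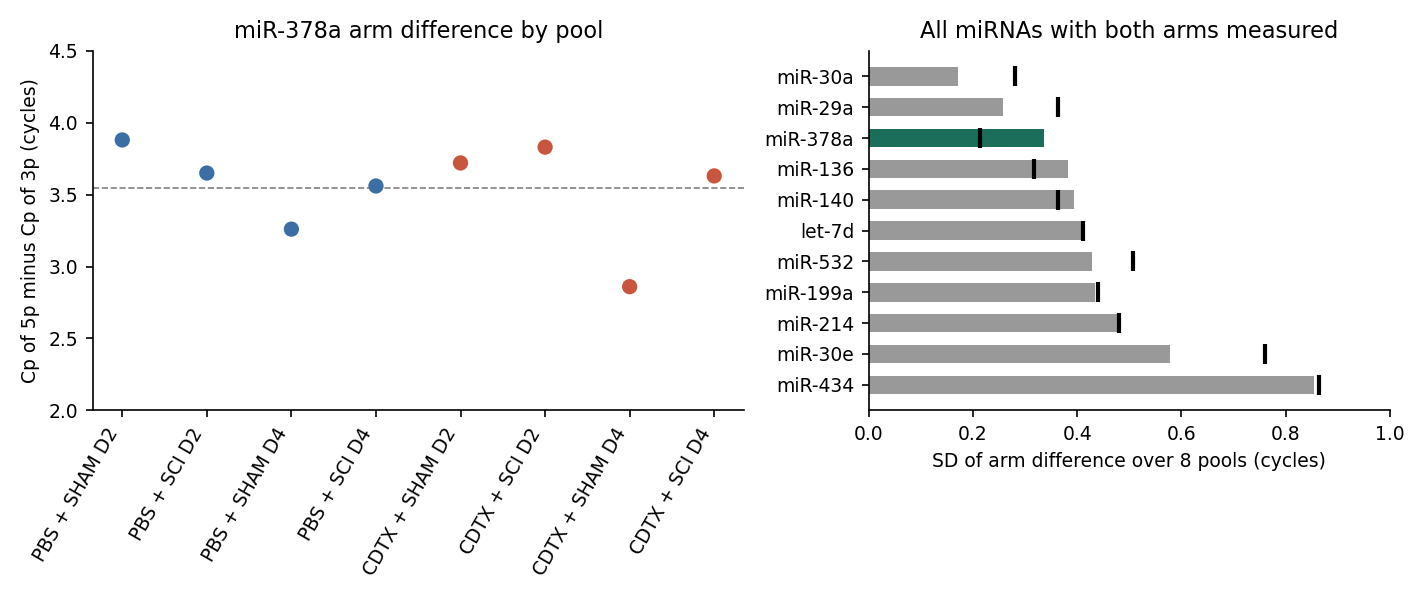
Left, Cp of miR-378a-5p minus Cp of miR-378a-3p in cycles, 1 point per pool (blue PBS, red CDTX), with the mean of 3.55 as a dashed line and an axis that starts at 2. Right, SD of the arm difference over the 8 pools for the 11 miRNAs with both arms tested (bars, miR-378a in green) and the same after each plate was set to its own mean (black ticks), where miR-378a has the lowest value, 0.213.

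The other arm of miR-486, miR-486-3p, was on plate 2 and near the threshold, with a Cp of 29.57 to 29.89 in the PBS pools and of 31.95 to 32.70 in the CDTX pools. It passed 32 in 3 CDTX pools and was not tested. Its CDTX pools also lay below its PBS pools in relative level, at -7.48 to -6.44 against -5.15 to -4.22 on the log2 scale. The 3p arm followed the 5p arm by 3.78 cycles on average (SD 0.474 over 8 pools). This delay ran from 3.18 to 4.04 cycles in the PBS pools and from 3.67 to 4.68 in the CDTX pools. Its mean was 0.53 cycles longer with CDTX, a difference that was not tested.

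Across the pools, miR-378a-3p and miR-486-5p kept nearly the same distance. Their difference in relative level was 2.84 to 3.09 with PBS and 2.60 to 3.08 with CDTX, a shift of -0.15 (exact permutation p = 0.371, 1 comparison, lower in 4 of 4 pairs). The permutation did not use the matched pairs, and no test within pairs was run on this distance. Assays amplify differently, so this distance is one of signal and not of copies.

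The profiles most like that of miR-378a-3p over the 8 pools belonged to miR-101-3p (Pearson r = 0.996), miR-151a-5p (0.990), miR-30b-5p (0.988), miR-133a-3p (0.988) and miR-100-5p (0.987). Those most like miR-378a-5p were miR-133b (0.973), miR-328-3p (0.968), miR-193b-3p (0.968, linked to brown fat and muscle), miR-136-3p (0.967) and miR-299-5p (0.967). For miR-486-5p they were miR-133a-3p (0.992), miR-378a-3p itself (0.984), miR-133b (0.982), miR-151a-5p (0.975) and miR-101-3p (0.972). miR-133a-3p and miR-133b are miRNAs of striated muscle, and the mature sequences of miR-100-5p, miR-193b-3p and miR-136-3p are those shown above. These r describe the separation of CDTX from PBS pools that many miRNAs share, since 22 to 26 of 122 assays had an r over 0.9 with each of the 3. The arms of miR-378a had an r of 0.932 with each other, 21st in the order for the 3p arm and 16th for the 5p arm. Within the 4 PBS pools that r was 0.50 and within the 4 CDTX pools 0.15, whereas miR-378a-3p and miR-486-5p, both on plate 1, had 0.78 and 0.99. Across plates, miR-378a-5p had 0.95 and 0.90 with miR-328-3p of plate 1. Within plate 1, miR-486-5p had 0.88 and -0.20 with miR-133b. Each of these r rests on 4 pools, and the part of the plate in them was not tested.

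The striated muscle miRNAs of the same pools give the scale of the fall. Of 9 assays of this list on the panel 4 were tested. Of these, 3 were lower with CDTX on the log2 scale, miR-133a-3p at -2.07, miR-133b at -1.70 and miR-1-3p, by its human-named assay, at -3.08. The value of miR-1-3p had an SE of 0.593, with levels from -0.74 to 2.61 over the CDTX pools. Its rat-named assay passed a Cp of 32 and was not tested. The levels of that assay were -6.01 to -5.23 in the PBS and -8.18 to -7.33 in the CDTX pools. For miR-206, known from regenerating fibers, the mean over days was not called, at -0.06 (limma adjusted p = 0.905), but its CDTX response was 2.59 higher at D4 than at D2 (adjusted p = 0.00842), so this mean joins opposite days. The log2 of the summed level of the list ranged from 6.05 to 6.67 in the PBS pools and from 4.00 to 4.61 in the CDTX pools, its defining markers miR-1-3p, miR-133a-3p, miR-133b and miR-206 being detected in every pool. In pooled whole muscle, fewer fibers and less of a miRNA per fiber cannot be told apart.

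Set against miR-133a-3p in the same pool, the 3 miRNAs were higher with CDTX than with PBS. The log2 level of miR-378a-3p minus that of miR-133a-3p was -3.54 to -3.10 in the PBS pools and -2.92 to -2.69 in the CDTX pools. The shifts of the differences were 0.42 for miR-378a-3p, 0.50 for miR-378a-5p and 0.57 for miR-486-5p, in 4 of 4 pairs each, without overlap between the injections. This comparison was chosen after its values were seen and follows from the larger fitted fall of miR-133a-3p, so it is given as a description. Relative to miR-133a-3p, 110 of the 122 other assays (90.2%) were higher in all 4 CDTX than in all 4 PBS pools, so this holds for most of the panel.

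Markers of other cells moved in both directions. Of the leukocyte list 7 assays were on the panel and 4 were tested. Both assays of miR-223-3p (3.69 and 3.57) and miR-142-5p (3.65) rose with CDTX and miR-150-5p fell by 0.83 (its response was -1.45 at D4 minus D2, limma adjusted p = 0.0199), and the log2 of the summed level rose from a range of -1.24 to -1.11 in PBS to 0.99 to 1.87 in CDTX pools. miR-126-3p of endothelial cells, 1 of 2 assays of that list tested, fell by 0.77 (summed level 0.33 to 0.67 in PBS and -0.92 to 0.56 in CDTX pools). Red cell miRNAs were also read, since miR-486-5p is abundant in red blood cells. Of these, miR-451a had a Cp of 33.12 to 35.46 and miR-144-3p of 29.82 to 32.22, so neither was tested. The summed log2 level of these untested assays was -6.48 to -4.997 in PBS and -6.46 to -5.29 in CDTX pools. miR-451a was past a Cp of 32 in every pool, and miR-144-3p only at the upper end of its range. This sum is therefore imprecise, and the part of red cells in miR-486-5p was not tested. Of the brown fat list, where miR-378a is also known, 2 of the 3 assays matched by name were tested. Of these miR-193b-3p fell by 0.96 and miR-455-3p rose by 0.89. The summed level of the matched assays overlapped (-3.69 to -3.10 in PBS, -4.18 to -3.21 in CDTX pools). The list's miR-365-3p was not matched by name and is not in these counts or this sum. The panel's miR-365a-3p fell by 0.96 with CDTX (limma adjusted p = 0.000708). The part of other cells in the fall of the 3 miRNAs was not tested.

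Among miRNAs linked to mitochondrial biogenesis, the field of miR-378a, 4 of 5 were on the panel and 1 was tested. That was miR-23a-3p, which was not called with CDTX, at 0.16 on the log2 scale (limma adjusted p = 0.356), while miR-494-3p and miR-761 stood at 36 in all pools. The myomiRs encoded in introns of myosin heavy chain genes, like miR-378a and miR-486 in their host genes, gave little signal here. miR-208a-3p was at 36 in all pools, miR-208b-3p at 33.73 to 36 and miR-499a-5p at 35.15 to 36, and 0 of the 3 were tested.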

How the data were processed

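RNA of 8 pools of mouse gastrocnemius was profiled by the authors with LNA RT-qPCR assays after reverse transcription, and the quantification cycle was taken as the second derivative maximum. The authors deposited these Cp values, used here as a score on a downward log2 scale, without normalization. The second deposited table holds each pool's ratio of target to references. Recomputed, it matched 4 references (miR-24-3p, miR-125b-5p, miR-16-5p and miR-23a-3p) within 0.0067 cycles for Cp up to 30, although the methods name 3, and it was used for names and as an alternative. A deposited table of fold changes against a control pool was not used. The plate was read from the number that opens each row key, and whether plates were run apart is not given in the sources used here. Of 755 rows, 3 were not miRNAs and were left out.

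Levels were recomputed from Cp with the 3 references of the methods. limma 3.58.1 (R 4.3.3) fitted injection, surgery and day over the 8 pools (4 residual degrees of freedom, 3 with an interaction) for the 123 assays whose Cp never exceeded 32, with Benjamini-Hochberg adjustment over all of them and calls at an adjusted p under 0.05. A ratio of 2 pools has no test and was read at 2-fold. Arm differences were tested by exact permutation over 70 assignments. The fit was tested on simulated data with independent noise for each assay. That simulation does not cover assays that shift together, as those of plate 2 did. Precision is limited by 1 pool per condition, and p-values do not measure the spread between mice.

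The miRNAs named are the 3 members and their other arms, the references, the 5 most correlated assays of each member, and lists for muscle gene introns, mitochondrial biogenesis, and striated muscle, erythroid, leukocyte, endothelial and brown fat markers, by counts and by members with a Cp of at most 32. A further list is not reported here. Members and lists were chosen with earlier results of these data known, and the study picked miR-378a-3p with this profiling in view. The comparison with miR-133a-3p was chosen after its values were seen. Alternatives were the global mean, each reference alone, the deposited values, Cp limits of 30 and 34 or none, 1 assay per miRNA, a variance trend, a block per matched pair, thresholds of 1.5-fold and 3-fold and leaving out each pool. The mean of each plate as reference, and sign flips within pairs on that scale, were added after seeing the data.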

Additional observations from a re-analysis of the deposited data

Results flagged for a closer look

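miR-378a-5p moved in opposite directions with the day in the SHAM and in the SCI pools. From D2 to D4 the log2 ratio was 0.58 with PBS and 0.49 with CDTX in SHAM muscle, and -0.21 with PBS and -0.53 with CDTX in SCI muscle, an average difference between the surgeries of 0.90. The same 8 values also appear as opposite directions with SCI at each day, 0.13 and 0.30 at D2 against -0.66 and -0.72 at D4, again 0.90 apart. Both were picked out because every pool ratio of one side went one way and every ratio of the other side the opposite way, and neither difference was tested. The median over the 18 tested assays that the row keys number to plate 2, this assay among them, was 0.53 and 0.71 from D2 to D4 in SHAM muscle with PBS and CDTX, and 0.17 and -0.29 in SCI muscle. With each plate set to its own mean, the D4 over D2 ratios of miR-378a-5p were 0.11 and -0.27 in SHAM and -0.30 and -0.42 in SCI muscle, no longer split by surgery. miR-378a-3p, on plate 1, did not show the split, at -0.04 and -0.37 in SHAM and -0.30 and -0.73 in SCI muscle.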

How the results depend on the processing

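The fall of the 3 miRNAs with CDTX kept its direction and its call in all 20 alternatives fitted, from -1.97 to -1.40 for miR-378a-3p, from -1.92 to -1.33 for miR-378a-5p and from -1.83 to -1.26 for miR-486-5p, with limma adjusted p up to 0.00152, 0.00288 and 0.00105. In SCI muscle at D2, with miR-23b-3p alone, the pool ratios of -0.79, -0.97 and -0.78 were under 2-fold. No member was called for surgery, day or either interaction under any alternative, and the signs of these small values depend on the reference. For SCI against SHAM, miR-486-5p turned to 0.0403 with the global mean and 0.0336 with the plate means. For D4 against D2, miR-378a-5p turned to -0.0018 with the global mean, -0.22 with the plate means and -0.055 with miR-24-3p alone, and miR-486-5p to 0.005 with miR-125b-5p alone. For the CDTX response at D4 minus D2, miR-378a-5p turned to 0.165 and miR-486-5p to 0.17 with miR-125b-5p alone. For the response with SCI minus SHAM, miR-378a-5p turned to -0.05 with miR-24-3p alone, and the arm difference of miR-378a turned to 0.21 with the plate means. The causes were not tested.

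Counts over all assays moved more. With CDTX, 27 were lower and 21 higher of 61 at a Cp of at most 30, and 71 of 194 and 147 of 752 higher at a limit of 34 and with none. The 5 calls of the response at D4 minus D2 became 2, 8 and 13 under these limits, 12 with the global mean, 22 with the plate means, 16 with miR-125b-5p and 0 with miR-24-3p alone. The assays at least 2-fold lower with CDTX numbered 24 (SHAM D2), 33 (SHAM D4), 27 (SCI D2) and 32 (SCI D4). They became 9, 18, 7 and 12 at 3-fold, 41 (SHAM D2) and 44 (SCI D2) at 1.5-fold, and 14 (SHAM D2) and 21 (SHAM D4) at a Cp of at most 30.

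Without each pool in turn, miR-378a-5p ran from -0.0471 to 0.244 for D4 against D2, from -0.56 to 0.15 for the response at D4 minus D2 and from -0.35 to 0.47 for the response with SCI minus SHAM, miR-486-5p from -0.18 to 0.0054 for D4 against D2, miR-378a-3p from -0.15 to 0.14 for SCI against SHAM, and the arm difference from -0.19 to 0.14. Without a change of sign, miR-378a-3p ran from -0.65 to -0.11 for the response at D4 minus D2, from 0.22 to 0.71 for the response with SCI minus SHAM and from -0.50 to -0.21 for D4 against D2, miR-378a-5p from -0.40 to -0.09 for SCI against SHAM, and miR-486-5p from -0.38 to -0.02 for the response at D4 minus D2, from 0.30 to 0.53 for that with SCI minus SHAM and from -0.19 to -0.0037 for SCI against SHAM. Calls ran from 0 to 1 for D4 against D2, 0 to 1 for the response with SCI minus SHAM and 0 to 15 for the response at D4 minus D2. No paired analysis by replicate number was possible because each condition has 1 pool. With the matched surgery and day as a block, all 3 falls with CDTX were called. Precision is limited by the number of pools, and assays near a Cp of 32 are the least precise.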
